A study of Homo sapiens with 9 samples.

Results

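The contacts of the TRIB1 promoter were described from one viewpoint at its transcription start (ENSG00000173334, hg38, chr8:125430358-125438403, plus strand), which was one of 20 promoters followed with Capture-C. Capture-C reads out which DpnII restriction fragments were ligated to a chosen fragment in crosslinked chromatin. Members were all DpnII fragments on chromosome 8 within 500 kb of the TRIB1 start, 2472 of the 47189 fragments within 500 kb of the 20 viewpoints, and no measured value entered the choice. All libraries came from HCT-116 cells, an established human colorectal carcinoma line, carrying the MED14-dTAG genotype, in which a degradable tag on MED14 lets the dTAG ligand remove the protein. The groups were dTAG ligand for 2 h (dTAG), dTAG ligand for 2 h with I-BET for 90 min (dTAG+I-BET), and the DMSO control, with 3 libraries each. A group with I-BET alone was not analysed here, so that the effect of I-BET was measured in MED14-depleted cells only. Loss of the MED14 protein itself could not be checked in these data.

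TRIB1 encodes Tribbles pseudokinase 1, a protein of the Tribbles family that lacks normal kinase activity and acts as a scaffold: it brings the ubiquitin ligase COP1 to substrates such as the transcription factor C/EBPα. Mediator is the large complex that passes signals from transcription factors at enhancers to RNA polymerase II at promoters, and MED14 is the subunit that holds its main modules together. I-BET inhibits the BET family of proteins, which bind acetylated histones. Promoters lie within self-contacting stretches of chromatin whose ends are often marked by CTCF and cohesin.

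The deposited values, called signal here, are interactions of a fragment with the viewpoint after scaling by the authors. Totals within the viewpoint's own chromosome are nearly equal between libraries, while those with other chromosomes are not. Values are given in the order of replicates 1, 2 and 3. The TRIB1 viewpoint held 12718 to 26761 interactions within chromosome 8 in a library, against 10698 to 60241 over all viewpoints, and 6762 to 15915 of them lay from 10 to 500 kb. A 10-kb bin held a median of 89 interactions in a library. Counting alone then gives an SE of 0.12 for a log2 difference of 3 against 3 libraries, and the fitted SE had a median of 0.18. The fragments within 10 kb of the start were left out of the tests. One library stood apart. In dTAG replicate 3 there was less signal near promoters, with a log2 difference from the DMSO mean of -0.48 from 10 to 50 kb on average over the 20 viewpoints and -0.36 at TRIB1. DMSO replicate 3 went the same way to a smaller extent, with -0.11 and -0.13. At TRIB1, 41.6% (95% Wilson interval 41 to 42.2%) of the interactions of dTAG replicate 3 and 41.8% (41.2 to 42.4%) of those of DMSO replicate 3 were with other chromosomes, against 36.5% to 39.5% in the other libraries.

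The promoter had a contact profile with a steep slope next to the start, a shelf upstream, a ridge farther out on each side, and low signal beyond. These parts were outlined after the profile had been seen and are given as levels (mean ± SD, n = 3 libraries per group) with no test. Upstream, the shelf from 70 to 220 kb lies over NSMCE2, the gene of a SUMO ligase of the SMC5/6 complex, and held 669 ± 116 per kb in dTAG, 699.7 ± 19.3 in dTAG+I-BET and 761 ± 46.4 in DMSO. The upstream ridge from 290 to 320 kb, also within NSMCE2, held 1051 ± 108 per kb in dTAG, 979.8 ± 37.7 in dTAG+I-BET and 1119 ± 164 in DMSO. Beyond it, from 360 to 500 kb, where WASHC5-AS1, SQLE and ZNF572 lie, signal was 126 ± 23.3 per kb in dTAG, 119.6 ± 5.72 in dTAG+I-BET and 126 ± 12.3 in DMSO. The ridge was thus 8.42 ± 1.03 times the signal beyond it in dTAG, 8.21 ± 0.515 times in dTAG+I-BET and 9.01 ± 2.09 times in DMSO.

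Downstream, the ridge from 200 to 280 kb lies at the start of LINC02964, a long non-coding RNA gene, and held 851 ± 105 per kb in dTAG, 822 ± 74.8 in dTAG+I-BET and 922 ± 71.4 in DMSO. From 310 to 500 kb signal was 112 ± 10 per kb in dTAG, 114 ± 14 in dTAG+I-BET and 99.1 ± 10.6 in DMSO. The downstream ridge was 7.58 ± 0.286 times the signal beyond it in dTAG, 7.35 ± 1.59 times in dTAG+I-BET and 9.36 ± 0.99 times in DMSO. Both ridges and both drops were therefore seen in all 3 groups. A stretch of 4.43 kb at 153 kb downstream is not listed among the fragments, and the bin from 150 to 160 kb, which holds it, is too low for that reason.

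**Figure D1:**
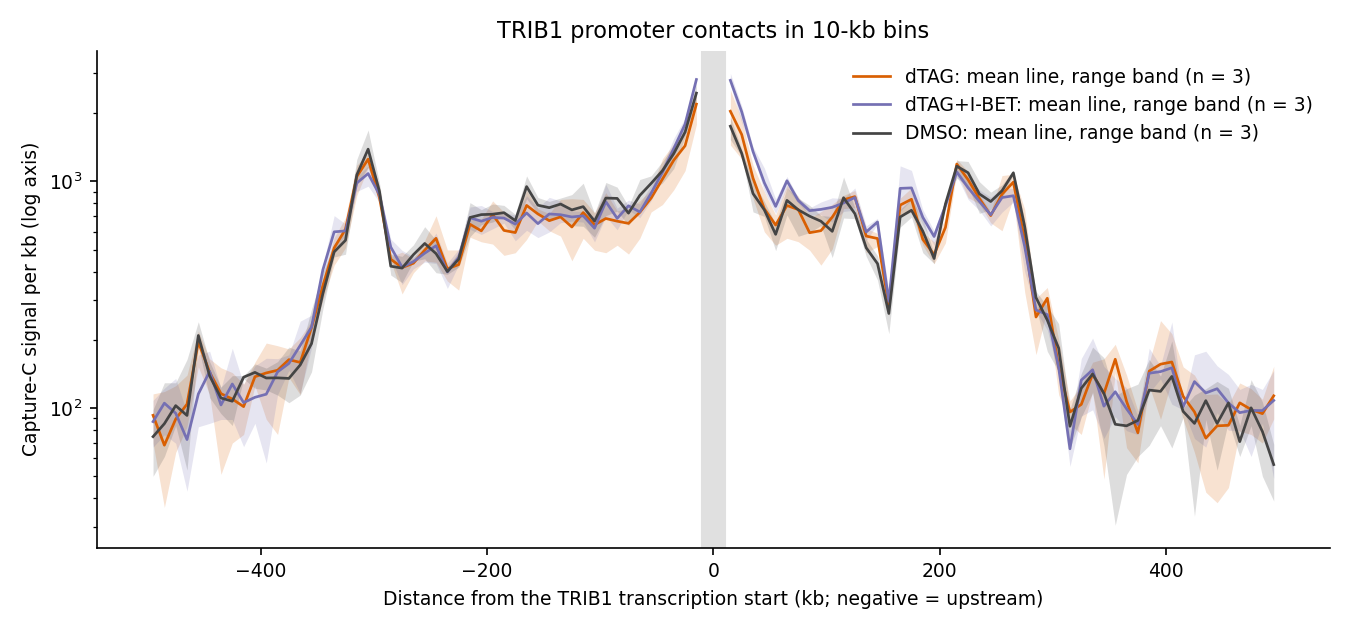
Capture-C signal per kb (log axis) of the TRIB1 promoter in 10-kb bins against distance from the start in kb, with the mean (line) and range (band) of 3 libraries for dTAG, dTAG+I-BET and DMSO; the grey strip is the part within 10 kb that was left out. Signal falls away from the promoter, peaks again at 300 to 310 kb upstream and at 210 to 220 kb downstream, and drops beyond both.

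The 5 bins with the most signal in DMSO were those from 10 to 20 kb upstream, 10 to 20 kb downstream, 20 to 30 kb upstream, 300 to 310 kb upstream and 20 to 30 kb downstream. The bin at 10 to 20 kb upstream (chr8:125410359-125420358, between genes) had 2339, 2451 and 1784 per kb in the dTAG replicates and 2776, 2759.9 and 2905 in the dTAG+I-BET replicates, against 2707, 2367 and 2278 in the DMSO replicates. The bin at 300 to 310 kb upstream (chr8:125120359-125130358, in NSMCE2, with an exon) was among them although it lies far away. It had 1325, 1287 and 1147 per kb in the dTAG replicates and 952, 1170.1 and 1125 in the dTAG+I-BET replicates, against 1323, 1154 and 1684 in the DMSO replicates. Its groups overlapped in each comparison, and its largest difference was log2 -0.35 ± 0.16 (SE), adjusted p = 0.312, for dTAG+I-BET against DMSO. Its choice by a high DMSO level favours a lower value in the treated groups. The bin with the least signal in DMSO, 490 to 500 kb downstream, averaged 113 ± 34.6 per kb in dTAG, 108 ± 51.9 in dTAG+I-BET and 56.3 ± 15.6 in DMSO, a range over bins of 43.5 times in DMSO. It was not the lowest bin in the treated groups, and its choice by the DMSO level favours a higher value there.

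Treated and control cells differed in the balance of contacts on either side of the promoter. From 10 to 50 kb, signal upstream over signal downstream was 1.16, 0.999 and 1.11 in the dTAG replicates, 1.03, 0.923 and 1.03 in the dTAG+I-BET replicates and 1.45, 1.3 and 1.42 in the DMSO replicates. DMSO cells thus had more signal upstream in every library, and the sides were nearly even in dTAG+I-BET. The dTAG mean lay between, and neither treated group overlapped DMSO. The ratio does not depend on how a library was scaled, and dTAG replicate 3 lay among the other dTAG replicates. It was chosen after the data had been seen and was fitted with limma over 60 ratios, 3 distances at each of 20 viewpoints. It fell by 0.35 ± 0.08 (SE) on the log2 scale in dTAG against DMSO (adjusted p = 0.00581) and by 0.48 ± 0.08 in dTAG+I-BET against DMSO (adjusted p = 9.9e-04). Between dTAG+I-BET and dTAG the log2 difference was -0.13 ± 0.08 (adjusted p = 0.649), and the libraries overlapped. Both calls against DMSO held with each of the 9 libraries left out in turn.

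From 50 to 200 kb the ratio was 1.11, 1.05 and 0.991 in the dTAG replicates, 0.935, 0.932 and 1.02 in the dTAG+I-BET replicates and 1.31, 1.17 and 1.31 in the DMSO replicates, again with no overlap between either treated group and DMSO. It fell by 0.26 ± 0.08 in dTAG (adjusted p = 0.0212) and by 0.39 ± 0.08 in dTAG+I-BET (adjusted p = 0.00217) against DMSO. The dTAG call at this distance was lost without DMSO replicate 1 (adjusted p = 0.0777), without dTAG replicate 2 (adjusted p = 0.0573) and with only the 2 groups in the fit (adjusted p = 0.0559). From 200 to 500 kb the ratio averaged 1.15 ± 0.0348 in dTAG, 1.17 ± 0.0458 in dTAG+I-BET and 1.13 ± 0.143 in DMSO, which differed by less than 1 SE in each comparison. Of all 60 ratios, 33.3% were called in dTAG against DMSO, 0.0% in dTAG+I-BET against dTAG and 50% in dTAG+I-BET against DMSO. A called ratio was thus common among the viewpoints. From 10 to 50 kb, TRIB1 had the fifth lowest log2 difference of the 20 viewpoints in dTAG against DMSO and the second lowest in dTAG+I-BET against DMSO. In the last comparison the others had a median of -0.27 and HMGA2 was lowest with -0.60. From 50 to 200 kb TRIB1 ranked 9th and 6th from the lowest in these comparisons, where the others had medians of -0.23 and -0.17.

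**Figure D2:**
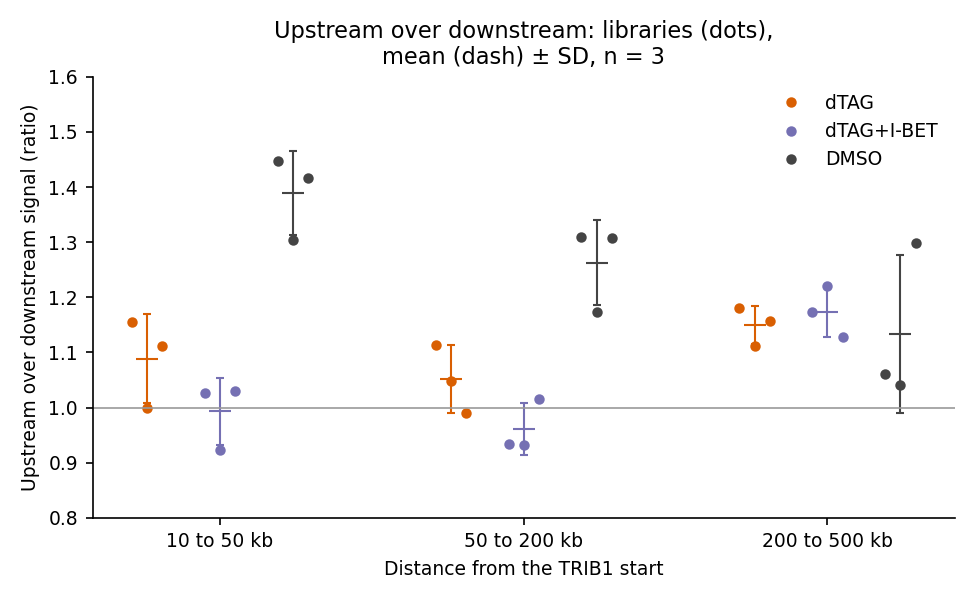
Upstream over downstream TRIB1 signal per kb (ratio, axis from 0.8) at 3 distances, with each library as a dot and the mean ± SD as a dash with bars for dTAG, dTAG+I-BET and DMSO (n = 3 each). At 10 to 50 kb and 50 to 200 kb all DMSO libraries lie above all treated libraries, and at 200 to 500 kb the groups overlap.

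Over the whole range from 10 to 500 kb, the upstream side held 53.5, 51.5 and 52% of the signal in the dTAG replicates, 50.9, 50.6 and 51.4% in the dTAG+I-BET replicates and 55.2, 53.4 and 57% in the DMSO replicates. The share was lower in every dTAG+I-BET library than in any dTAG or DMSO library, with differences of the means of -1.32 and -4.21 percentage points (exact two-sided permutation p = 0.1 each, the smallest that 3 against 3 allows). The separation from dTAG was narrow, with 51.45% in dTAG+I-BET replicate 3 and 51.47% in dTAG replicate 2. Between dTAG and DMSO the share differed by -2.89 percentage points and the groups overlapped (exact permutation p = 0.2). After Benjamini-Hochberg adjustment over 18 such single values, none was below 0.514.

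By side and distance, 1 of the 6 TRIB1 bands was called, the downstream side next to the promoter. It runs from 10 to 50 kb and holds the promoter of TRIB1AL, a long non-coding RNA gene next to TRIB1. Signal there was 1446, 1597 and 1035 per kb in the dTAG replicates and 1764, 1903 and 1702 in the dTAG+I-BET replicates, against 1229.9, 1242 and 1063 in the DMSO replicates. Every dTAG+I-BET library lay above every dTAG and every DMSO library, while dTAG and DMSO overlapped through dTAG replicate 3. The difference was log2 0.60 ± 0.15 (SE), adjusted p = 0.0324, for dTAG+I-BET against DMSO. It was log2 0.19 ± 0.15 (SE), adjusted p = 0.558, for dTAG against DMSO and log2 0.42 ± 0.15 (SE), adjusted p = 0.428, for dTAG+I-BET against dTAG. Of the 120 bands of all viewpoints, 2.5% were called in dTAG against DMSO, 0.0% in dTAG+I-BET against dTAG and 9.17% in dTAG+I-BET against DMSO.

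The call for this band rested on all 6 libraries: leaving out any one of the dTAG+I-BET or DMSO libraries kept the log2 difference at 0.53 to 0.64 but raised the adjusted p to 0.0974 to 0.155. Without dTAG replicate 3, the band was also called in dTAG against DMSO (log2 0.37, adjusted p = 0.0122), while without dTAG replicate 2 that difference was 0.06 and without DMSO replicate 3 0.11. The difference of dTAG+I-BET from dTAG was 0.23 without dTAG replicate 3. Set against the mean of the same band at the 19 other viewpoints in the same library, TRIB1 was higher by log2 0.16 in dTAG than in DMSO and by 0.31 in dTAG+I-BET than in DMSO, with no overlap of the libraries (exact permutation p = 0.1 each, the smallest possible). It was higher by 0.15 in dTAG+I-BET than in dTAG (exact permutation p = 0.2). These relative values were added after the data had been seen. Benjamini-Hochberg adjustment over 18 such permutation tests gave 0.45 for each of them. In dTAG+I-BET against DMSO the band had the second highest log2 difference of the 20 viewpoints, after HMGA2 with 0.80, and the others had a median of 0.31.

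The other bands passed no test. Upstream from 10 to 50 kb, in sequence without a gene, signal was 1671, 1595 and 1152 per kb in the dTAG replicates and 1811, 1757 and 1752 in the dTAG+I-BET replicates, against 1781, 1619.6 and 1505 in the DMSO replicates. The lowest dTAG+I-BET library lay above the highest dTAG library. The fit gave log2 0.29 ± 0.14 (SE), adjusted p = 0.428, for dTAG+I-BET against dTAG, and log2 -0.17 ± 0.14 (SE), adjusted p = 0.558, for dTAG against DMSO. Without dTAG replicate 3 these values were 0.12 and 0.00104. Upstream from 50 to 200 kb, over the 3′ part of NSMCE2, signal was 768, 760.2 and 545 per kb in the dTAG replicates and 707, 712 and 732 in the dTAG+I-BET replicates, against 864, 771 and 735 in the DMSO replicates. Every dTAG+I-BET library lay below every DMSO library, with log2 -0.14 ± 0.13 (SE), adjusted p = 0.627, and -0.07 without DMSO replicate 1. For dTAG against DMSO the fit gave log2 -0.21 ± 0.13 (SE), adjusted p = 0.486, and -0.04 without dTAG replicate 3. Downstream from 50 to 200 kb signal was 689, 725 and 549.7 per kb in the dTAG replicates and 757, 764 and 720.4 in the dTAG+I-BET replicates, against 660, 657 and 563 in the DMSO replicates. Every dTAG+I-BET library was above every DMSO library there, with log2 0.26 ± 0.12 (SE), adjusted p = 0.201. For dTAG+I-BET against dTAG it was log2 0.20 ± 0.12 (SE), adjusted p = 0.437, and 0.08 without dTAG replicate 3. Rescaling the libraries to equal totals from 10 to 1000 kb brought the difference from DMSO past the threshold in this band (log2 0.20, adjusted p = 0.0288) and in the upstream band from 50 to 200 kb (log2 -0.20, adjusted p = 0.0365). From 200 to 500 kb, the upstream band averaged 369 ± 42.9 per kb in dTAG, 368 ± 11.2 in dTAG+I-BET and 375 ± 15.8 in DMSO. The downstream band averaged 321 ± 38.6 in dTAG, 314 ± 13.4 in dTAG+I-BET and 333 ± 26.2 in DMSO, and all differences of both bands were within 1 SE.

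**Figure D3:**
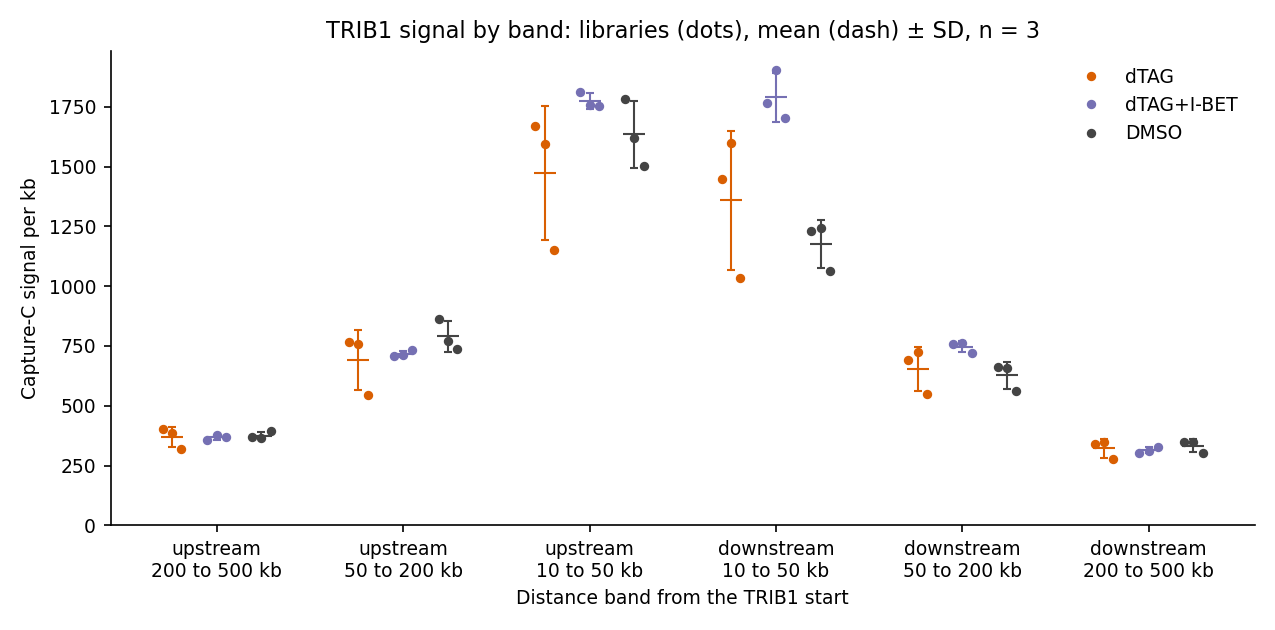
TRIB1 signal per kb in 6 distance bands (upstream left, downstream right), with each library as a dot and the mean ± SD as a dash with bars for dTAG, dTAG+I-BET and DMSO (n = 3 each). Downstream from 10 to 50 kb the dTAG+I-BET libraries lie at 1702 to 1903 and the DMSO libraries at 1063 to 1242.

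In 10-kb bins, 5 of the 98 TRIB1 bins were called in dTAG+I-BET against DMSO, 4 higher and 1 lower, against 4.9% of the 1960 bins of all viewpoints (3.47% higher and 1.43% lower). The number of called bins was thus near the background, and an unadjusted p under 0.05 was found for 12 TRIB1 bins, against 15.8% of all bins. The 4 higher bins were all downstream. At 10 to 20 kb (chr8:125440358-125450357, between genes), signal was 2139, 2530.1 and 1446 per kb in the dTAG replicates and 2714, 2995 and 2660.2 in the dTAG+I-BET replicates, against 1802, 1923 and 1528 in the DMSO replicates. This bin gave log2 0.68 ± 0.19 (SE), adjusted p = 0.0358. At 20 to 30 kb (chr8:125450358-125460357, between genes), it was 1695, 1878 and 1255 per kb in the dTAG replicates and 2119, 2149 and 1816 in the dTAG+I-BET replicates, against 1384, 1315 and 1289 in the DMSO replicates. It gave log2 0.61 ± 0.17 (SE), adjusted p = 0.035. At 30 to 40 kb (chr8:125460358-125470357), which holds an exon of TRIB1AL, it was 1179, 1079 and 841 per kb in the dTAG replicates and 1320.2, 1323 and 1419 in the dTAG+I-BET replicates, against 1004, 914 and 733 in the DMSO replicates. The fit gave log2 0.63 ± 0.17 (SE), adjusted p = 0.0326. In each of these 3 neighbouring bins every dTAG+I-BET library lay above every DMSO library. The fourth, at 140 to 150 kb (chr8:125570358-125580357, between genes), had 589, 573 and 516 per kb in the dTAG replicates and 651, 687 and 648 in the dTAG+I-BET replicates, against 464, 469.8 and 367 in the DMSO replicates, with each dTAG library also above each DMSO library. It gave log2 0.62 ± 0.15 (SE), adjusted p = 0.026. The lower bin, at 450 to 460 kb upstream (chr8:124970359-124980358), holds ZNF572, a zinc finger gene. It had 152, 219 and 217 per kb in the dTAG replicates and 92.1, 82.7 and 171 in the dTAG+I-BET replicates, against 198, 240.3 and 189 in the DMSO replicates. The fit gave log2 -0.92 ± 0.25 (SE), adjusted p = 0.034, from as few as 13 interactions in a library.

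These calls were close to the threshold. No TRIB1 bin was called without dTAG+I-BET replicate 1, dTAG+I-BET replicate 2, DMSO replicate 1 or DMSO replicate 2. Further, 1 was called without DMSO replicate 3, 2 without dTAG+I-BET replicate 3, and 9 without dTAG replicate 3, which enters only through the spread. The share of all bins called in each of these fits is not given here, so these counts cannot be set against a background. Over these omissions the log2 difference stayed at 0.58 to 0.75 for the bin at 10 to 20 kb and at 0.50 to 0.68 for the bin at 140 to 150 kb. edgeR on the recovered interactions called 4 TRIB1 bins, against 5.15% of all bins, all of them among the 5, and left out the ZNF572 bin (adjusted p = 0.0619). The groups did not overlap in 13 TRIB1 bins, against 26.3% of all bins. Downstream 34 of 49 bins had a difference above 0, with a median log2 of 0.17, and upstream 20 of 49 bins did, with a median of -0.05. Over all bins of the 20 viewpoints, both sides together, 52.2% were above 0 and the median was 0.02. By band, the other viewpoints had median log2 differences of 0.31, 0.20 and 0.055 downstream, from the nearest band to the farthest. Upstream these medians were 0.044, -0.0032 and -0.067. A rise downstream was thus not particular to TRIB1.

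In dTAG against DMSO, 0 of the 98 TRIB1 bins were called by limma, against 1.58% of all bins. An unadjusted p under 0.05 was found for 4, against 13.3% of all bins, and edgeR called 0, against 2.7% of all bins. The groups did not overlap in 6 bins, against 16.3% of all bins. The bins with the lowest p on the higher side lay in the low stretches of the profile. At 350 to 360 kb downstream, in an intron of LINC02964, values were 158, 143 and 191 per kb in the dTAG replicates and 135, 127 and 91.7 in the dTAG+I-BET replicates, against 30.4, 113 and 111 in the DMSO replicates. The fit gave log2 1.15 ± 0.36 (SE), adjusted p = 0.116. Every dTAG library lay above every DMSO library, but the bin held as few as 4 interactions in a library. It was called with the replicate number as a block (adjusted p = 0.024) and without DMSO replicate 3 (adjusted p = 0.0424), but without DMSO replicate 1, the lowest library, log2 was 0.54 (adjusted p = 0.523). The bin at 490 to 500 kb downstream, the lowest of all in DMSO, gave log2 0.99 ± 0.36 (SE), adjusted p = 0.181. On the lower side, the bin at 200 to 210 kb downstream had 656, 688 and 535 per kb in the dTAG replicates and 768, 744 and 832 in the dTAG+I-BET replicates, against 791, 805 and 789 in the DMSO replicates, with no overlap of dTAG and DMSO. It gave log2 -0.35 ± 0.15 (SE), adjusted p = 0.296, and the bin at 80 to 90 kb upstream gave log2 -0.34 ± 0.17 (SE), adjusted p = 0.388, and -0.18 without dTAG replicate 3.

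In dTAG+I-BET against dTAG, 0 of the 98 TRIB1 bins were called by limma, against 0.0% of all bins. An unadjusted p under 0.05 was found for 8, against 6.22% of all bins, and edgeR called 0, against 0.0% of all bins. The groups did not overlap in 13 TRIB1 bins, against 13.9% of all bins. On the higher side the bins with the lowest p were at 10 to 20 kb downstream, with log2 0.49 ± 0.19 (SE), adjusted p = 0.713, and at 30 to 40 kb downstream, with log2 0.40 ± 0.17 (SE), adjusted p = 0.713. Without dTAG replicate 3 they gave 0.26 and 0.26. On the lower side they were at 450 to 460 kb upstream, with log2 -0.82 ± 0.25 (SE), adjusted p = 0.713, and at 310 to 320 kb downstream, with log2 -0.54 ± 0.26 (SE), adjusted p = 0.713. They include bins called in dTAG+I-BET against DMSO, and the 2 comparisons share the dTAG+I-BET libraries. The second bin on the lower side in dTAG+I-BET against DMSO was at 260 to 270 kb downstream, on the ridge, with log2 -0.34 ± 0.15 (SE), adjusted p = 0.275. It passed the threshold without dTAG replicate 3 (adjusted p = 0.0256).

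**Figure D4:**
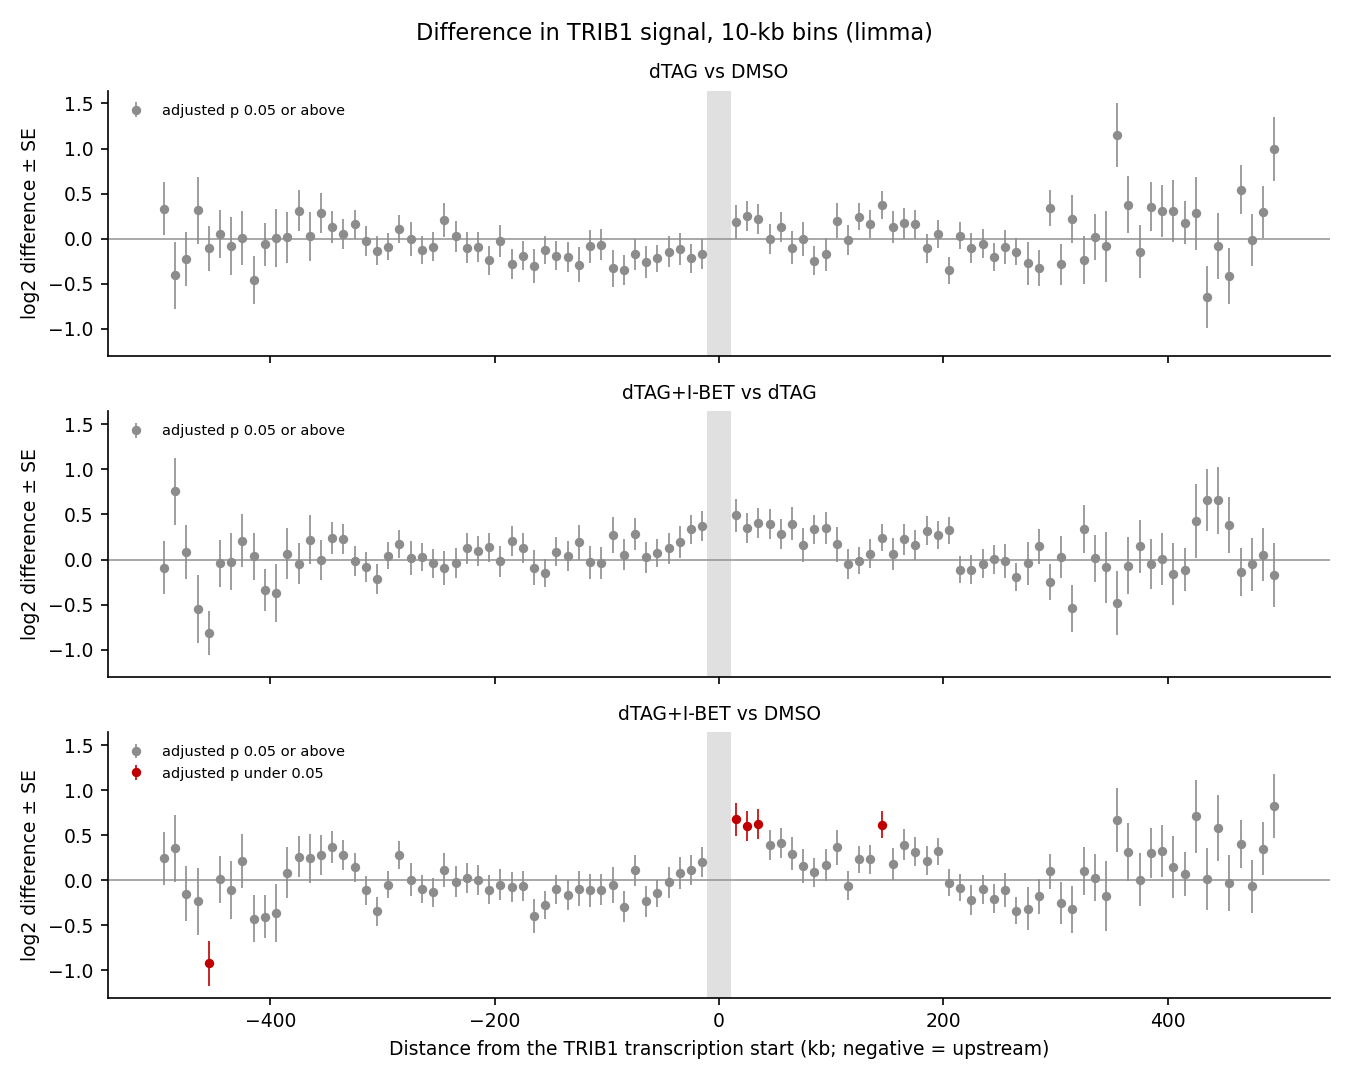
Log2 difference ± SE (limma, 9 libraries) of TRIB1 signal in 98 10-kb bins against distance from the start in kb, for dTAG vs DMSO, dTAG+I-BET vs dTAG and dTAG+I-BET vs DMSO from top to bottom, with called bins in red and the part within 10 kb in grey. Red points appear in the lowest panel only, 4 above 0 downstream and 1 below 0 upstream.

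Windows were next placed around sites that lost the cohesin subunit SMC1A after MED14 depletion, as listed by the study, with 5 kb added on both sides. The list was made with another assay on the same cell line, and 6 windows fell between 10 and 500 kb of the TRIB1 start. Of these, 4 lay upstream within introns of NSMCE2 and 2 downstream within introns of LINC02964. None was called in any comparison, against 8.85% of the 113 windows of all viewpoints in dTAG against DMSO, 0.0% in dTAG+I-BET against dTAG and 14.2% in dTAG+I-BET against DMSO. An unadjusted p under 0.05 was found for 0 of the 6 in dTAG against DMSO, 0 in dTAG+I-BET against dTAG and 1 in dTAG+I-BET against DMSO, where the shares of all windows were 23%, 6.19% and 30.1%. edgeR called none of the 6, against 10.6%, 0.0% and 15.9% of all windows. The fitted log2 differences were below 0 for 6 of 6 windows in dTAG against DMSO (median -0.13, against -0.19 over all windows, of which 78.8% were below 0) and for 6 of 6 in dTAG+I-BET against DMSO (median -0.12, against -0.15 and 75.2%). In dTAG+I-BET against dTAG, 3 of 6 were below 0 (median -0.02, against 0.05 and 42.5%).

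The window that stood out covers 3 sites around 155 kb upstream of TRIB1 (chr8:125266367-125284377). Its signal was 806, 814 and 669 per kb in the dTAG replicates and 651, 727 and 788 in the dTAG+I-BET replicates, against 895, 869 and 944 in the DMSO replicates. All treated libraries lay below all DMSO libraries. The difference was log2 -0.33 ± 0.14 (SE), adjusted p = 0.121, for dTAG+I-BET against DMSO and log2 -0.25 ± 0.14 (SE), adjusted p = 0.318, for dTAG against DMSO. Rescaling to equal totals brought the first past the threshold (log2 -0.39, adjusted p = 0.0137), as did leaving out dTAG replicate 3 (adjusted p = 0.0284). The second was -0.16 without that library. The window 225 kb downstream (chr8:125650610-125661010), on the downstream ridge, had 1092, 1089 and 907 per kb in the dTAG replicates and 809, 844 and 1017 in the dTAG+I-BET replicates, against 1243, 1057 and 956 in the DMSO replicates. It gave log2 -0.29 ± 0.15 (SE), adjusted p = 0.207, for dTAG+I-BET against DMSO and log2 -0.21 ± 0.15 (SE), adjusted p = 0.917, for dTAG+I-BET against dTAG. The first passed the threshold after rescaling (log2 -0.35, adjusted p = 0.0321) and was -0.18 without DMSO replicate 1. The window 80 kb upstream (chr8:125345158-125355558) had 841, 693 and 502 per kb in the dTAG replicates and 691, 832 and 747 in the dTAG+I-BET replicates, against 863, 868 and 679 in the DMSO replicates. The groups overlapped in each comparison. This window gave log2 -0.27 ± 0.18 (SE), adjusted p = 0.355, for dTAG against DMSO and log2 0.18 ± 0.18 (SE), adjusted p = 0.917, for dTAG+I-BET against dTAG. Without dTAG replicate 3 these values were -0.06 and -0.02, and without dTAG replicate 1 -0.44 and 0.35.

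The window 138 kb upstream averaged 668 ± 91.5 per kb in dTAG, 760 ± 138 in dTAG+I-BET and 760.2 ± 109 in DMSO. It gave log2 -0.19 ± 0.17 (SE), adjusted p = 0.43, for dTAG against DMSO and log2 0.18 ± 0.17 (SE), adjusted p = 0.917, for dTAG+I-BET against dTAG. With 1 library left out the first ran from -0.30 to -0.07, nearest to 0 without dTAG replicate 3, and the second from 0.04 to 0.28, nearest to 0 without dTAG+I-BET replicate 3. The outermost windows differed by less than 1 SE in each comparison. The one 255 kb upstream averaged 478 ± 51 in dTAG, 448 ± 36.5 in dTAG+I-BET and 502 ± 98.5 in DMSO. The one 256 kb downstream averaged 786 ± 211 in dTAG, 792 ± 109 in dTAG+I-BET and 793 ± 46.2 in DMSO. A further site of the list lies 9.95 kb downstream, inside the part left out of the tests, on a fragment at chr8:125439580-125441022. This fragment had a signal of 1944, 1864 and 765 in the dTAG replicates, 3070.3, 2798 and 1773 in the dTAG+I-BET replicates and 1141, 1347 and 1000.2 in the DMSO replicates. It was thus higher in each dTAG+I-BET library than in each DMSO library (exact permutation p = 0.1, the smallest possible), from 12 to 52 interactions in a library.

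The promoters of 8 neighbouring genes lay from 10 to 500 kb away, each taken with 5 kb on both sides. None was called, against 1.4% of the 214 promoters near all viewpoints in dTAG against DMSO, 0.0% in dTAG+I-BET against dTAG and 1.87% in dTAG+I-BET against DMSO. An unadjusted p under 0.05 was found for 0 of the 8 in dTAG against DMSO, 1 in dTAG+I-BET against dTAG and 2 in dTAG+I-BET against DMSO, where the shares of all promoters were 16.4%, 7.48% and 17.8%. edgeR called 0, 0 and 2 of the 8, against 2.8%, 0.0% and 10.3% of all promoters. The nearest, TRIB1AL at 36.6 kb downstream, had 1185, 1093 and 847 per kb in the dTAG replicates and 1222, 1361 and 1382 in the dTAG+I-BET replicates, against 943, 899 and 706 in the DMSO replicates. Every dTAG+I-BET library lay above every dTAG and every DMSO library, with log2 0.65 ± 0.18 (SE), adjusted p = 0.101, for dTAG+I-BET against DMSO. The difference was log2 0.29 ± 0.18 (SE), adjusted p = 0.509, for dTAG against DMSO and log2 0.36 ± 0.18 (SE), adjusted p = 0.712, for dTAG+I-BET against dTAG. Without DMSO replicate 3 the first of these was 0.16, and without dTAG replicate 3 the second was 0.21. edgeR called TRIB1AL in dTAG+I-BET against DMSO (log2 0.64, adjusted p = 0.0065), as limma did with 10 kb on both sides (log2 0.59, adjusted p = 0.0413) and without dTAG replicate 3 (adjusted p = 0.0478). The window overlaps the called bin at 30 to 40 kb and is not a separate measurement of it.

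NSMCE2 and WASHC5, the gene of a subunit of the WASH complex that nucleates actin on endosomes, start next to each other on opposite strands, and their windows share most fragments. At NSMCE2, 339 kb upstream, signal was 510.3, 498 and 408 per kb in the dTAG replicates and 467, 649 and 477 in the dTAG+I-BET replicates, against 418, 437 and 389 in the DMSO replicates. Every dTAG+I-BET library lay above every DMSO library, with log2 0.34 ± 0.18 (SE), adjusted p = 0.362. At WASHC5 the libraries of these groups did not overlap either, with log2 0.30 ± 0.18 (SE), adjusted p = 0.44. Without dTAG+I-BET replicate 2 these values were 0.19 and 0.15. For dTAG against DMSO, NSMCE2 gave log2 0.18 ± 0.18 (SE), adjusted p = 0.709, and 0.28 without dTAG replicate 3. ZNF572, 457 kb upstream, had 152, 186 and 204 per kb in the dTAG replicates and 86, 69.9 and 153 in the dTAG+I-BET replicates, against 167, 237 and 150 in the DMSO replicates. Here dTAG+I-BET and DMSO overlapped through dTAG+I-BET replicate 3. The fit gave log2 -0.89 ± 0.28 (SE), adjusted p = 0.133, for dTAG+I-BET against DMSO and log2 -0.88 ± 0.28 (SE), adjusted p = 0.378, for dTAG+I-BET against dTAG. Without dTAG+I-BET replicate 3 the first was -1.21 (adjusted p = 0.0208). edgeR also called ZNF572 in dTAG+I-BET against DMSO (log2 -0.88, adjusted p = 0.0461). This window overlaps the called bin at 450 to 460 kb upstream and is not a separate measurement of it. SQLE, which encodes squalene epoxidase of cholesterol synthesis, shares its window with the divergent transcript SQLE-DT. It averaged 136 ± 54.3 per kb in dTAG, 129.9 ± 46.4 in dTAG+I-BET and 128 ± 19.4 in DMSO. WASHC5-AS1 averaged 164 ± 69.1 in dTAG, 171 ± 59.6 in dTAG+I-BET and 162 ± 29.5 in DMSO. All differences of both were within 1 SE. The promoter with the most signal, LINC02964 at 218 kb downstream on the ridge, averaged 1140.2 ± 57.8 per kb in dTAG, 1061 ± 31.2 in dTAG+I-BET and 1179 ± 113 in DMSO, also within 1 SE.

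**Figure D5:**
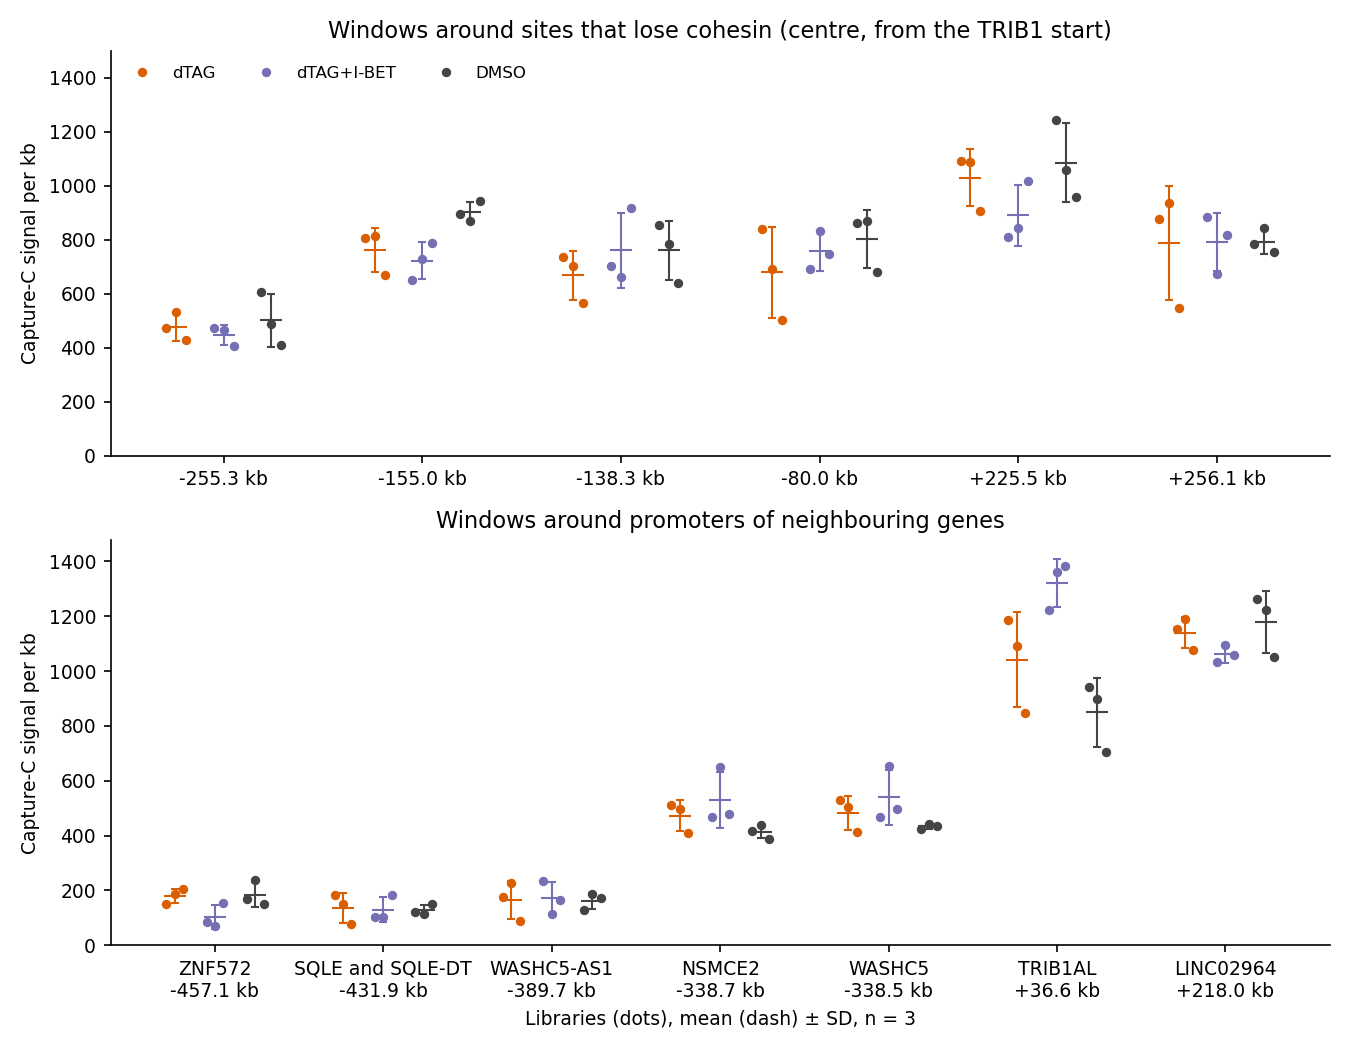
TRIB1 signal per kb in windows around cohesin-lost sites (top, centre in kb from the start) and around neighbouring promoters (bottom), with each library as a dot and the mean ± SD as a dash with bars for dTAG, dTAG+I-BET and DMSO (n = 3 each). At 155 kb upstream the treated libraries lie below the DMSO libraries, and at TRIB1AL the dTAG+I-BET libraries lie above the others.

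The total signal of TRIB1 from 10 to 500 kb was 565648, 570348 and 430865 in the dTAG replicates, 560393, 573927 and 566047 in the dTAG+I-BET replicates and 563641, 542789.5 and 506279 in the DMSO replicates. Both treated groups overlapped DMSO. Set against the mean log2 total of the 19 other viewpoints in the same library, it was 0.351 ± 0.00748 in dTAG, 0.347 ± 0.0147 in dTAG+I-BET and 0.332 ± 0.0123 in DMSO. The difference was 0.02 for dTAG against DMSO (exact permutation p = 0.1), -0.00484 for dTAG+I-BET against dTAG (p = 0.7, exact) and 0.01 for dTAG+I-BET against DMSO (p = 0.2, exact). TRIB1 ranked 7th, 10th and 9th of 20 from the highest by the log2 ratio of its group means in these comparisons.

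By the level of the 6 bands in DMSO, the viewpoints most like TRIB1 were SPRY4, HS3ST1 and MTAP, with a mean absolute log2 difference of 0.30, 0.40 and 0.41 over 6 bands. Their downstream bands from 10 to 50 kb gave a log2 difference of 0.34 ± 0.11 (adjusted p = 0.0701), 0.15 ± 0.14 (adjusted p = 0.607) and 0.30 ± 0.18 (adjusted p = 0.352) in dTAG+I-BET against DMSO, where TRIB1 gave 0.60. The upstream over downstream ratio from 10 to 50 kb was called at MTAP in dTAG+I-BET against DMSO (log2 -0.36, adjusted p = 0.00536) but not at SPRY4 (log2 -0.22, adjusted p = 0.156) or HS3ST1 (log2 -0.16, adjusted p = 0.092). In dTAG against DMSO, where TRIB1 gave -0.35, the ratio was also called at MTAP (log2 -0.39, adjusted p = 0.00418) and not at SPRY4 (log2 -0.11, adjusted p = 0.422) or HS3ST1 (log2 -0.18, adjusted p = 0.062). The downstream bands from 10 to 50 kb gave 0.01 at SPRY4, -0.0011 at HS3ST1 and 0.08 at MTAP in that comparison. The difference of TRIB1 from these 3 promoters was not tested one by one.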

How the data were processed

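Capture-C libraries, 3 per group and 9 in all, came from HCT-116 cells with tagged MED14. The study calls them biologically independent. Replicate columns carry the letters TR, whose meaning is not given in the sources used here, and the p-values measure the spread between these libraries. Treatment times were read from the column names. The authors digested chromatin with DpnII, captured promoter fragments and counted interactions per fragment with CapCruncher on hg38 (bcl2fastq 2.17 per the submitters' processing notes). The deposited signal is the authors' interaction count after scaling each library and viewpoint, and it carries their read filters. The scaled total is nearly equal within the viewpoint's own chromosome only. Division by the smallest value of a column gave whole numbers for 100% of the TRIB1 values (tolerance 0.01), and these were used as interactions.

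Fragments were assigned by midpoint. Genes came from GENCODE 44, and TRIB1AL was named through RefSeq by overlap of at least 80%. Signal per kb plus 1 was taken to log2 and fitted with limma 3.58.1 in R 4.3.3 over all 9 libraries and all 20 viewpoints (with a variance trend for bins), with Benjamini-Hochberg adjustment over every region of that kind, and a call at an adjusted p under 0.05. A filter of 2 per kb removed no bin. Library values were compared with two-sided exact permutation tests. Intervals from counting cover counting error only. edgeR 4.0.16 was applied to the recovered interactions as an alternative. In simulated data for dTAG against DMSO (1960 bins), limma called 2 of 1760 unchanged bins, 89 of 100 changed by log2 1 and 21 of 100 changed by log2 -0.5. The simulated bins varied independently, with the same dispersion for all. They had no library-wide shift of signal near promoters such as that of dTAG replicate 3, so these counts do not cover it. Exact tests were enumerated with numpy 2.4.6 under Python 3.11.15, and Wilson intervals came from scipy 1.17.1.

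Within a group, 2 libraries differed by a chi-square of 1.43 to 2.18 per TRIB1 bin, more than sampling noise gives, and all were kept as replicates. Libraries of different groups differed by 1.39 to 3.92. Library preparation can add such spread too, so these values do not show that the libraries are biologically independent. Named were all bands, windows and promoters (with a log2 difference where it exceeded its SE), the 5 bins highest and the 1 lowest in DMSO, each called bin, and the 2 bins of lowest p in each direction per comparison. Windows rest on the study's list of sites that lost SMC1A. Members and lists were chosen with earlier results of these data known. Alternatives were rescaling to equal totals from 10 to 1000 kb, each library left out, a replicate block, pseudocounts of 0.5 and 5, only the 2 groups compared, other bins (5 and 25 kb), pads (2.5 and 10 kb) and filters, and edgeR; the ratio of sides, values relative to other viewpoints by band and fits without dTAG and DMSO replicate 3 were added after the data were seen. The other assays of the study were not used here.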

Additional observations from a re-analysis of the deposited data

Results flagged for a closer look

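A value outside the main measurement was higher in every dTAG+I-BET library than in every DMSO library: the signal of the fragment at the cohesin-lost site 9.95 kb downstream of TRIB1, within the 10 kb that the tests left out. It averaged 2547 ± 684 in dTAG+I-BET and 1163 ± 175 in DMSO (SD, n = 3 each; exact two-sided permutation p = 0.1, the smallest possible), and 1524 ± 659 in dTAG, which overlapped both. The fragment is next to the called bin at 10 to 20 kb downstream. The rise was not particular to this fragment. The whole downstream side within 10 kb, which holds it, averaged 3922 ± 186 per kb in dTAG+I-BET, 3185 ± 558 in DMSO and 3013 ± 120 in dTAG. Every dTAG+I-BET library there lay above every DMSO and every dTAG library (exact two-sided permutation p = 0.1 each). On the upstream side within 10 kb the groups overlapped in each comparison.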

How the results depend on the processing

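For dTAG against DMSO, 1 TRIB1 bin was called with the replicate block, 3 without dTAG and DMSO replicate 3 together, and 0 to 2 with 1 library left out (2 without dTAG replicate 3, 1 without DMSO replicate 3), against 0. Of the bands, 1 was called without both libraries and 0 to 1 with 1 left out, against 0. For dTAG+I-BET against dTAG, 1 band was called without both libraries, against 0, and bins, windows and promoters had no call under any alternative run. For dTAG+I-BET against DMSO, the 5 called bins became 8 with only the 2 groups compared, 10 without both libraries, 2 in 5-kb bins, 1 in 25-kb bins, and 0 to 9 with 1 library left out. The 1 called band became 3 after rescaling, 2 with only the 2 groups, 4 without both libraries and 0 to 2 with 1 left out. Windows went to 2 calls after rescaling, 1 with only the 2 groups, 2 without both libraries and 0 to 1 with 1 left out, against 0, and promoters to 2 with edgeR, 1 with 10 kb on both sides and 0 to 1 with 1 left out, against 0. The cause was not tested, and omissions leave fewer libraries. Apart from edgeR, the shares of all regions called under these alternatives are not given here, so the counts cannot be set against a background. The total relative to the other viewpoints changed sign to -0.00334 over 10 to 1000 kb for dTAG against DMSO, to 0.00585 over 10 to 250 kb, 0.0111 over 10 to 1000 kb and -0.0123 to 0.00248 with 1 library left out for dTAG+I-BET against dTAG, and to -0.00845 with the median of the others for dTAG+I-BET against DMSO. The upstream share kept its direction under all alternatives. Among single regions, 3 values changed sign: the upstream band from 10 to 50 kb in dTAG against DMSO (0.0222 relative to the other viewpoints, -0.267 to 0.00104 with 1 library left out), the upstream band from 50 to 200 kb in dTAG against DMSO (0.00271 relative to the other viewpoints), and the window 80 kb upstream in dTAG+I-BET against dTAG (-0.0173 without both libraries, -0.0173 to 0.354 with 1 left out). Over all single regions, these 3 included, 360 values with 1 library left out kept direction and side of the threshold, 36 lost the call and 7 gained one, and under the remaining alternatives 328 kept both, 3 lost the call and 20 gained one.

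Whether same-numbered libraries of different groups share a batch is not given in the sources used here. Over all bins their deviations from the group means correlated at -0.06 to 0.23 (9 pairs), against -0.23 to 0.16 for different numbers. The highest value was that of DMSO replicate 3 with dTAG replicate 3, the libraries with less signal near promoters. Deviations from a mean of 3 libraries cancel out within a group, so these correlations cannot decide the question. With the replicate block, TRIB1 bins called numbered 5 in dTAG+I-BET against DMSO, 0 in dTAG+I-BET against dTAG and 1 in dTAG against DMSO. The shares of all bins called in that fit are not given here either. Depth limits the low stretches beyond the ridges most, where a bin held as few as 4 interactions.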
